A study of Mus musculus with 4 samples.

Results

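The genes described here are Apoe and 9 others that carry, export, sense or take up cholesterol: Apoc1, Apod, Abca1, Abcg1, Pltp, Nr1h2, Nr1h3, Lrp1 and Npc2. They were chosen by name, as a group, with their EN and EN-TAM67 intensities already known, so those values are given as a description and not as a test. All probe sets with 1 of these symbols as their only annotation were taken. This gave 18 probe sets for 9 of the 10 genes, of 18194 genes named on the array. No probe set had Nr1h2 as its only symbol, so its intensity was not analysed here. Of the 18 probe sets, 16 passed a filter that left out the dimmest 40% of the array (a mean under 27.2 intensity units), at least 1 for each of the 9 genes.

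RNA was measured in 4 mouse mammary tumours, each on its own Affymetrix mouse array. All tumours grew in nude mice, which lack T cells but keep macrophages and other host cells, from transplanted Eph4 cells, an established mouse mammary epithelial line. In both groups the Eph4 cells were transduced with ETV6-NTRK3 (EN), a fusion oncogene that encodes a constitutively active tyrosine kinase. The 2 tumours called EN carried this fusion alone, and in the 2 called EN-TAM67 the fusion-bearing cells co-expressed TAM67, a c-Jun mutant that blocks AP-1, the transcription factor of which c-Jun is a subunit, in a dominant negative manner. The comparison is of RNA in tumours that had already formed, with and without TAM67. It does not measure how much of the fusion's tumour formation runs through AP-1. The labels give no age or strain, do not say whether tumours within a group arose from separate cell cultures, and give no promoter for the constructs, so the spread between 2 tumours may be in part technical. Transplanted and host cells are both murine, and these values do not separate them.

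Cholesterol cannot be broken down by most cells and leaves them by efflux. Lipoprotein particles are taken up by receptors such as Lrp1, their cholesterol is freed in lysosomes and passed on by Npc2, and the transporters Abca1 and Abcg1 move it out to acceptors such as apolipoprotein E. The liver X receptors Nr1h2 and Nr1h3 sense oxidised cholesterol and, as partners of retinoid X receptors, switch on Abca1, Abcg1, Apoe, Apoc1 and Pltp. Macrophages are a well known site of this programme and an abundant source of Apoe.

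Promoter windows of 300 bases, 250 before to 50 after an annotated start, were read from RefSeq (build GRCm38.p6). There were 11 windows in all for 8 of the 10 genes, Nr1h2 included, and none for Apoc1 and Abcg1. The 250 bases before the start are shown for 3 members that are textbook targets of the liver X receptors and whose values, given below, differed in sign or size. Capitals mark a match to the liver X receptor element, 2 copies of AGGTCA in the same direction with 4 bases between them (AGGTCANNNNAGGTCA), with up to 3 mismatches over its 12 fixed bases, searched on both strands. The Apoe window is the one farthest upstream of 3, at chr7:19699189-19699438, the Abca1 window is chr4:53159896-53160145 and the Pltp window is chr2:164857709-164857958, all on the minus strand.
Apoe: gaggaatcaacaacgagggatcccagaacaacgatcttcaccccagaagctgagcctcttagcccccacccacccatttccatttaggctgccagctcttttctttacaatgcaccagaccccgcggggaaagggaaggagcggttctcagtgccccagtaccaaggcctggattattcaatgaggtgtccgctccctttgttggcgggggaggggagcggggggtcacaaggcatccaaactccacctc
Abca1: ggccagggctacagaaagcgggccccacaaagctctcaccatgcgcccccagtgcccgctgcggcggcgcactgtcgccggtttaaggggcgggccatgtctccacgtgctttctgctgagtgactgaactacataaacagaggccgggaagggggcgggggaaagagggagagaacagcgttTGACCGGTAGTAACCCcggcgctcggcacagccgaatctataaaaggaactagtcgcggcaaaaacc
Pltp: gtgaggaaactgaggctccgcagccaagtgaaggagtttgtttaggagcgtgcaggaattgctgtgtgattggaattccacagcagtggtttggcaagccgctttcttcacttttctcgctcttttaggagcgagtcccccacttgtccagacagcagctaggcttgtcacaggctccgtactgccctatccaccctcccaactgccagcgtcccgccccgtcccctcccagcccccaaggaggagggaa
Abca1 held the 1 match among the 11 windows, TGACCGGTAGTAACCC, on the opposite strand with 3 mismatches, its first base 67 bases before the start (position -67). Of all 32851 promoter windows, 21.9% held such a match and 5 (0.0152%) an exact one, and no member window held an exact one. The AP-1 site TGANTCA stood in 0 of the 11 member windows and in 7.81% of all windows. These are matches of letters in a short window, and a window without one says nothing about more distant elements.

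Apoe was lower in both EN-TAM67 tumours. Its single probe set (1432466_a_at) read 4972 and 3598 intensity units in EN tumours 1 and 2, and 2293 and 1998 in EN-TAM67 tumours 1 and 2. Both EN values lay above both EN-TAM67 values, with means of 4285 ± 972 (SD, n = 2) and 2145 ± 208, a ratio of 2.00. On the scale log2(intensity + 16), used for all differences below and always as EN-TAM67 minus EN, this is -0.98 ± 0.18 (SE). Leaving out EN tumour 1 gave -0.74, and leaving out EN tumour 2 gave -1.21. Among the 13325 genes tested, 0.901% had a difference below that of Apoe.

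Apoc1 was dim, and its groups overlapped. It lies next to Apoe on chromosome 7 and encodes a small apolipoprotein of the same particles. Its probe set read 35.1 and 19.0 units in the EN and 15.3 and 52.5 in the EN-TAM67 tumours. The lowest and the highest value were both EN-TAM67 tumours, and the difference of 0.13 ± 0.48 (SE) was -0.14 without EN tumour 2. Without EN-TAM67 tumour 2 the probe set fell below the filter.

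Apod, a lipocalin that binds small lipids and is no relative of Apoe in sequence, was near the filter. One of its probe sets (1416371_at) read 55.0 and 38.1 units in the EN and 18.4 and 32.7 in the EN-TAM67 tumours. The groups did not overlap, but EN tumour 2 and EN-TAM67 tumour 2 were close, and the difference was -0.60 ± 0.38 (SE), or -0.30 with a pseudocount of 64. The other (1444564_at), below the filter, read 23.5 and 7.98 units in the EN and 17.2 and 23.5 in the EN-TAM67 tumours.

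**Figure D1:**
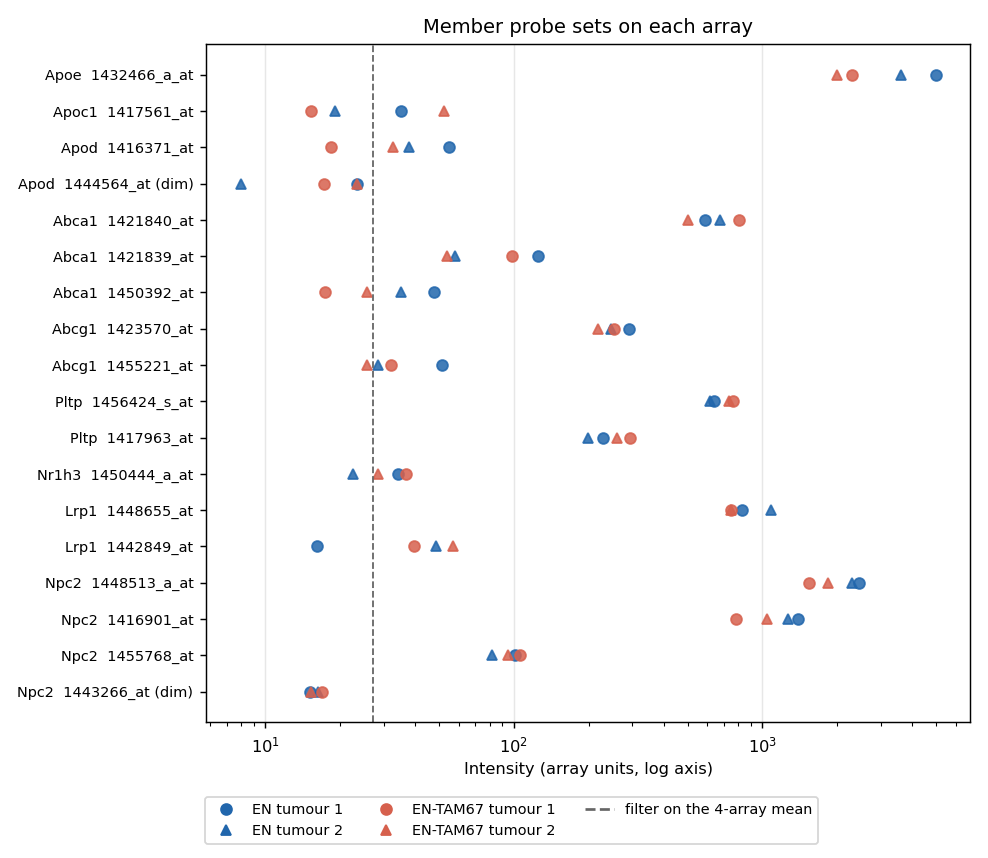
Intensity (log axis) of the 18 member probe sets on each of the 4 arrays; circles are tumour 1 and triangles tumour 2 of a group, and the dashed line is the filter at 27.2 units, applied to the mean of the 4 arrays. EN values stand above EN-TAM67 values for Apoe, the brightest Lrp1 probe set, the 2 brightest Npc2 probe sets, Apod 1416371_at and Abca1 1450392_at. They stand below the EN-TAM67 values for both Pltp probe sets.

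The transporters that export cholesterol had small differences with overlapping groups in their brightest probe sets. Abca1, which loads lipid onto apolipoproteins, read 585 and 676 units in the EN and 804 and 500 in the EN-TAM67 tumours with its brightest probe set (1421840_at). The 2 EN-TAM67 tumours were the highest and the lowest, and the difference was 0.013 ± 0.24 (SE). Leaving out EN-TAM67 tumour 2 gave 0.35 and leaving out EN-TAM67 tumour 1 gave -0.32; the value was -0.086 with each array centred on its median and -0.26 with the gene's probe sets averaged. The other probe sets read 125 and 57.9 against 98.6 and 53.7 units (1421839_at, -0.19), and 47.6 and 35.1 against 17.4 and 25.7 units (1450392_at, -0.61). The groups overlapped in the first of these and did not in the second, whose EN-TAM67 values lay below the filter.

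Abcg1, which passes cholesterol on to high density lipoprotein, read 289 and 245 units in the EN and 253 and 218 in the EN-TAM67 tumours (1423570_at). EN tumour 2 lay below EN-TAM67 tumour 1, so the groups overlapped, and the difference was -0.17 ± 0.22 (SE). Its dimmer probe set (1455221_at) read 51.4 and 28.5 against 32.2 and 25.7 units and overlapped too.

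Pltp, the phospholipid transfer protein that remodels lipoprotein particles in the plasma, stood on the other side. It read 639 and 615 units in the EN and 762 and 736 in the EN-TAM67 tumours (1456424_s_at), with means of 627 ± 17.2 and 749 ± 18.3 (SD, n = 2). A second probe set (1417963_at) read 229 and 199 against 292 and 261 units. In both probe sets each EN-TAM67 tumour was above each EN tumour, with differences of 0.25 ± 0.20 (SE) and 0.35. The first lay between 0.22 and 0.28 with any 1 array left out and was 0.15 after median centring.

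Of the liver X receptors, Nr1h3 was close to the filter. It read 34.3 and 22.6 units in the EN and 36.9 and 28.6 in the EN-TAM67 tumours. The groups overlapped, and the difference of 0.14 ± 0.41 (SE) was -0.049 without EN tumour 2.

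Npc2 and Lrp1, of the uptake and lysosomal arm, were lower in the EN-TAM67 tumours by their bright probe sets. Npc2, the soluble lysosomal protein that binds freed cholesterol, read 2445 and 2301 units in the EN and 1535 and 1829 in the EN-TAM67 tumours (1448513_a_at), with means of 2373 ± 101 and 1682 ± 208 (SD, n = 2) and a difference of -0.50 ± 0.18 (SE). A second probe set (1416901_at) read 1384 and 1269 against 780 and 1047 units, a difference of -0.54. Neither overlapped, and in both EN-TAM67 tumour 1 was the lowest, whereas for Apoe EN-TAM67 tumour 2 was. The dimmer Npc2 probe sets did not show this: 1455768_at read 101 and 81.4 against 106 and 94.9 units, and 1443266_at, below the filter, read 15.2 and 16.4 against 17.0 and 15.3. With the probe sets above the filter averaged, Npc2 differed by -0.31, and with quantile normalization by -0.36.

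Lrp1, an endocytic receptor for Apoe-bearing particles, read 829 and 1083 units in the EN and 748 and 746 in the EN-TAM67 tumours (1448655_at). The groups did not overlap, but EN tumour 1 was nearer to the EN-TAM67 tumours than to EN tumour 2. The difference was -0.34 ± 0.21 (SE), and -0.15 without EN tumour 2. Its other probe set (1442849_at) read 16.2 and 48.9 against 39.8 and 57.0 units, a difference of 0.48 with overlapping groups, and the average of both was 0.073.

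**Figure D2:**
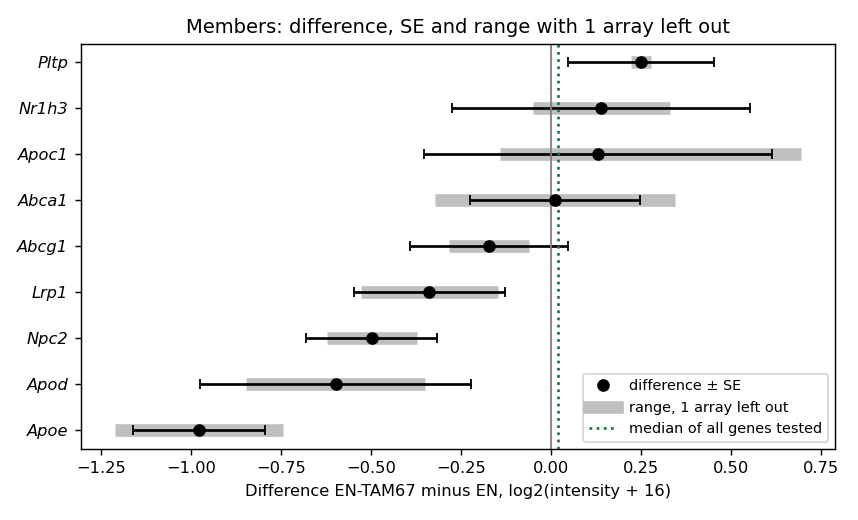
Difference in log2(intensity + 16), EN-TAM67 minus EN, for the brightest probe set of each of the 9 members; points are differences with their SE, grey bars run over the 4 fits with 1 array left out (3 for Apoc1), and the dotted line is the median of all genes tested (0.020). Apoe stands lowest at -0.98 and Pltp highest at 0.25, and the bars of Apoc1, Nr1h3 and Abca1 cross 0.

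Over the 9 members the differences had a median of -0.17, 5 negative and 4 positive, beside a median of 0.020 over all 13325 genes. With 1 array left out the members' median lay between -0.32 and -0.089. The groups did not overlap in 4 of the 9, all lower in EN-TAM67 (Apoe, Apod, Lrp1 and Npc2), and in Pltp, which was higher, while 19.9% of all genes were lower and 20.3% higher without overlap. Of the 16 probe sets above the filter, 6 were lower and 2 higher without overlap, where over all 27022 probe sets kept these shares were 18.1% and 21.7%. In the fit over all genes (limma, adjusted p under 0.05), 1 of 9 members, Apoe, was past the threshold on the lower side and 0 on the higher, beside 58 genes (0.435%) lower and 19 (0.143%) higher. With median centring 51 genes were lower and 7 higher. Since the members were chosen with this contrast known, nothing is read from these counts. Apoe was past the threshold in 8 of 15 other settings and not in 7, among them those that left out EN tumour 1 or either of the EN-TAM67 tumours (-0.74, -1.08 and -0.88).

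Within single arrays, Apoe stood closer to Pltp, Abca1 and Npc2 in the EN-TAM67 tumours. The log2 difference between Apoe and Pltp was 2.93 and 2.52 in the EN and 1.57 and 1.42 in the EN-TAM67 tumours, a shift of -1.23. Between Apoe and Abca1 it was 3.05 and 2.38 against 1.49 and 1.96, a shift of -0.99. In both pairs each EN-TAM67 tumour lay below each EN tumour. Between Apoe and Npc2 it was 1.02 and 0.64 against 0.57 and 0.13, a shift of -0.48 with only a narrow gap between EN tumour 2 and EN-TAM67 tumour 1. They come from the values known when the members were chosen and are a description.

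Over the 4 arrays, the genes nearest to Apoe by root mean square distance of centred log2 values, of 13324 ranked, were Cd109, a membrane-anchored protease inhibitor family protein (0.068), the interferon-inducible GTPase Ifi47 (0.076), the interferon-induced gene Ifit3 (0.086), Efhd2, a calcium-binding protein (0.086), and Armc3 (0.090). Cd109 read 243 and 184 units in the EN and 97.8 and 94.7 in the EN-TAM67 tumours. Ifi47 read 557 and 412 against 276 and 204. Of the members, Apod was nearest to Apoe at 0.31 and Npc2 next at 0.32, at ranks 477 and 519, and Apoc1 was farthest at 0.73.

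Macrophage markers were mostly lower in the EN-TAM67 tumours. All 18 macrophage markers were above the filter and none was at 0 on every array; 16 were negative, with a median of -0.39. Their summed intensity was 23570 and 19571 in the EN and 16180 and 13130 in the EN-TAM67 tumours. In this sum, which bright markers weigh most, the 4 tumours stood in the same order as for Apoe. Single markers varied: Lyz2 had that order, while Csf1r, C1qb and Mrc1, among others, did not. Of the 18, 0 passed the limma threshold over all genes. An unadjusted p under 0.05 (limma) was found for 6, beside 1327 (9.96%) of all 13325 genes. That share also stands beside such counts for the lists below. Lyz2, lysozyme, was at -0.88 (limma adjusted p = 0.0543) and C1qb, a complement subunit, at -0.82 (limma adjusted p = 0.0915). Without EN tumour 1 Lyz2 was at -0.66 and C1qb at -0.64, and without EN tumour 2 at -1.10 and -0.99. Without EN-TAM67 tumour 1 they were at -1.13 and -0.80, and without EN-TAM67 tumour 2 at -0.64 and -0.83. Leaving out EN-TAM67 tumour 1 moved the median of the list to -0.54, and leaving out EN-TAM67 tumour 2 to -0.21. In whole tumours, fewer cells of a type and less RNA per cell cannot be told apart, and the part of macrophages in the Apoe and Npc2 values was not tested.

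Other marker lists also differed between the tumours, and their part in the members' values was not tested either. Of 12 fibroblast markers 10 were negative (median -0.50), 0 passed and 7 had an unadjusted p under 0.05 (limma). Their summed intensity was 20079 and 26864 in the EN and 17737 and 15543 in the EN-TAM67 tumours, highest in EN tumour 2, as for Lrp1. Lum, a matrix proteoglycan, was at -1.07 (limma adjusted p = 0.0917) and Thy1 at -0.96 (limma adjusted p = 0.279); without EN tumour 1 both passed (-1.52 and -1.59, limma adjusted p = 1.4e-04 and 1.1e-04). Leaving out EN tumour 2 gave -0.63 for Lum and -0.32 for Thy1 (limma adjusted p = 0.351 and 0.821). The number of fibroblast markers past the threshold was 6 with EN tumour 1 left out. Of 12 adipocyte markers 9 were tested and all were positive (median 0.84); 4 of them rose in the fit over all genes (Adipoq by 2.33, Car3 by 3.36, Fabp4 by 2.47 and Retn by 1.59), 3 of which lost their call without EN-TAM67 tumour 2 (Fabp4, Adipoq and Retn). Of these markers 0 passed with no intensity trend, with the robust variance or with the replicate block (limma), and 1 with quantile normalization or median centring. Their median was 0.42 with EN tumour 2 left out, 1.41 with EN tumour 1 left out and 1.45 with EN-TAM67 tumour 1 left out. The summed adipocyte signal was 1186 and 846 units in the EN and 1980 and 6779 in the EN-TAM67 tumours, so it was uneven between the EN-TAM67 tumours. The 6 endothelial markers tested of 10 were all negative (median -0.36, 0 passed, 3 with an unadjusted p under 0.05 by limma), with summed signals of 588 and 778 against 443 and 513 units. Cdh5, VE-cadherin, was at -0.74 (limma adjusted p = 0.274) and passed without EN tumour 1 (-1.12, limma adjusted p = 0.00901), while leaving out EN tumour 2 moved it to -0.37 (limma adjusted p = 0.779). Eng, endoglin, was at -0.70. Leaving out EN-TAM67 tumour 1 moved the endothelial median to -0.097 and leaving out EN tumour 2 to -0.24.

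Schwann and nerve markers had a median of -0.32, with 6 tested of 8, 0 passed and 3 with an unadjusted p under 0.05 (limma). Their sums were 898 and 1022 against 1014 and 944 units and so overlapped, with Ncam1 at -0.79 and S100b at -0.64. Leaving out EN-TAM67 tumour 1 moved the median of the list to -0.11 and S100b to -0.22, and leaving out EN tumour 2 moved the median to -0.18. Leaving out EN-TAM67 tumour 2 moved Ncam1 to -0.42 and S100b to -1.07. Epithelial markers, which stand for the labelled cell type, were measured in every tumour. Of 9 tested of 10, 0 passed and 3 had an unadjusted p under 0.05 (limma), with a median of -0.20 that was -0.054 without EN tumour 1 and -0.056 when EN tumour 2 was left out. Their sums were 3766 and 3984 units in the EN and 3138 and 3424 in the EN-TAM67 tumours, and the basal keratins Krt14 and Krt5 were at 0.67 and -0.63. Krt14 was at 1.34 with EN-TAM67 tumour 1 left out and at -0.0089 with EN-TAM67 tumour 2 left out. No marker of any of the 6 lists that was named on the array read 0 in all probe sets and tumours. Probe sets below the filter, such as 1443266_at of Npc2, also read above 0, so this does not show which cell types were present.

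**Figure D3:**
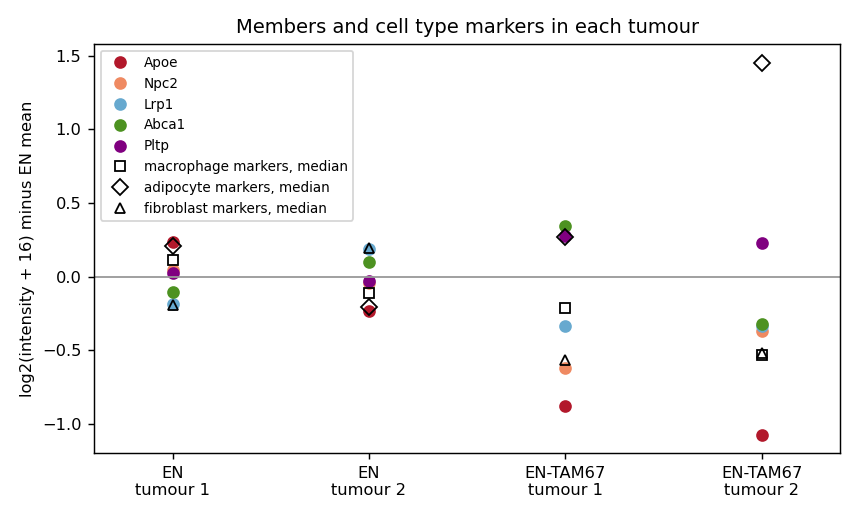
Position of 5 members and of the medians of 3 cell type marker lists in each tumour, as log2(intensity + 16) minus the mean of the EN tumours. Apoe and the macrophage median both stand lowest in EN-TAM67 tumour 2, Abca1 is above 0 in EN-TAM67 tumour 1 and below it in EN-TAM67 tumour 2, and the adipocyte median reaches 1.45 in EN-TAM67 tumour 2.

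Signs of RNA quality and array scale differed between the groups too. The ratio of 3' to 5' signal of Gapdh was 0.938 and 1.04 in the EN and 1.17 and 1.11 in the EN-TAM67 tumours, and that of beta-actin was 1.11 and 1.19 against 1.31 and 1.34. The log2 signal of the 18S ribosomal control was 5.43 and 6.40 against 6.76 and 7.43. All 3 measures were higher in both EN-TAM67 tumours. Array medians were 35.6 and 35.9 against 38.1 and 40.8 units. In the 18S signal and the array median the tumours stood in the reverse of their order for Apoe. The part of these in the members' values was not tested.

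Liver X receptor targets and partners other than the members lay on both sides of 0. Of the 20 genes listed, 15 were tested, 9 negative and 6 positive, and 0 passed. An unadjusted p under 0.05 (limma) was found for 2 of the 15, beside 9.96% of all genes. Their median was -0.16, and it was 0.11 without EN-TAM67 tumour 1. Leaving out EN tumour 1 gave a median of -0.017, and leaving out EN-TAM67 tumour 2 of -0.064. Scd1, the fatty acid desaturase that liver X receptors and SREBP1 both drive, read 419 and 341 units in the EN and 641 and 2004 in the EN-TAM67 tumours, a difference of 1.55 ± 0.35 (SE, limma adjusted p = 0.0526). Its size rested on EN-TAM67 tumour 2, without which it was 0.74. It passed with EN tumour 1 left out (1.69) or EN-TAM67 tumour 1 left out (2.36). With all arrays it passed without the filter (limma adjusted p = 0.0398) or with a pseudocount of 1 (limma adjusted p = 0.0483). It did not with the robust variance (limma adjusted p = 0.518) or averaged probe sets (1.05, limma adjusted p = 0.193). The summed adipocyte markers, 1186 and 846 against 1980 and 6779 units, stood in the same tumour order as Scd1. Their part in Scd1 was not tested. Mylip, the ubiquitin ligase that sends the low density lipoprotein receptor to the lysosome, was lower. It read 223 and 189 units in the EN and 119 and 82.7 in the EN-TAM67 tumours, without overlap. The difference was -0.94 ± 0.22 (SE, limma adjusted p = 0.0772). Mylip passed without EN tumour 2 (-1.05) and with the robust variance (limma adjusted p = 0.0488).

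Genes of lipoprotein formation, cholesterol esterification and other efflux routes stood around 0. Of 20 listed, 15 were tested, 8 negative and 7 positive, with a median of -0.0082, and 0 passed. An unadjusted p under 0.05 (limma) was found for 1 of the 15, beside 9.96% of all genes. Clu, which encodes the secreted chaperone clusterin, also called apolipoprotein J, read 464 and 534 units in the EN and 290 and 343 in the EN-TAM67 tumours, without overlap (-0.63 ± 0.22, limma adjusted p = 0.303). Lcat, which esterifies cholesterol on lipoproteins, was at -0.69 ± 0.35 with overlapping groups (limma adjusted p = 0.541). Leaving out EN-TAM67 tumour 1 moved Lcat to -1.25, leaving out EN-TAM67 tumour 2 to -0.13 and leaving out EN tumour 2 to -0.43.

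Among lipoprotein and scavenger receptors other than Lrp1, 13 of 18 were tested. The scavenger receptor and fatty acid transporter Cd36 rose, from 19.1 and 16.7 units in the EN to 173 and 278 in the EN-TAM67 tumours (2.80 ± 0.24, limma adjusted p = 9.3e-06), and 0 fell. The EN readings lay below the filter, so this size rests on the pseudocount. Cd36 stood in the same tumour order as the summed adipocyte markers, and their part in it was not tested. The median of the list was 0.039; it was -0.12 with EN tumour 1 left out and -0.094 with EN-TAM67 tumour 1 left out.

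More lysosomal lipid genes were negative, as Npc2 was, than positive. Of 16 listed, 14 were tested, 9 negative and 5 positive, beside 6347 negative and 6978 positive over all genes. In 7 the EN-TAM67 tumours were lower without overlap (1 higher), beside the 19.9% and 20.3% of all genes. The median was -0.13, and from -0.25 with EN-TAM67 tumour 1 left out to -0.059 with EN-TAM67 tumour 2 left out; 0 passed and 3 had an unadjusted p under 0.05 (limma). Ctsd, the lysosomal protease cathepsin D, read 2080 and 1872 units in the EN and 1280 and 1333 in the EN-TAM67 tumours (-0.59 ± 0.18, limma adjusted p = 0.246), and Stard3, which moves cholesterol out of late endosomes, was at -0.52 ± 0.21 (limma adjusted p = 0.423). The summed macrophage markers, 23570 and 19571 against 16180 and 13130 units, were also lower. So were the summed fibroblast, endothelial and epithelial markers, and the part of any of these in the lysosomal genes was not tested.

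Cholesterol synthesis genes split in both directions. Of 23 listed, 20 were tested, 11 negative and 9 positive, with a median of -0.012 that leaving out EN tumour 1 moved to -0.17 and leaving out EN tumour 2 to 0.14. None passed (0 of 20), and 2 had an unadjusted p under 0.05 (limma), beside 9.96% of all genes. Mvk, mevalonate kinase, read 148 and 158 units in the EN and 76.0 and 83.7 in the EN-TAM67 tumours (-0.82 ± 0.21, limma adjusted p = 0.103). Lss, which closes the sterol ring system, read 72.5 and 63.5 against 107 and 111 units (0.57 ± 0.21, limma adjusted p = 0.348). In both genes the groups did not overlap, in opposite directions.

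**Figure D4:**
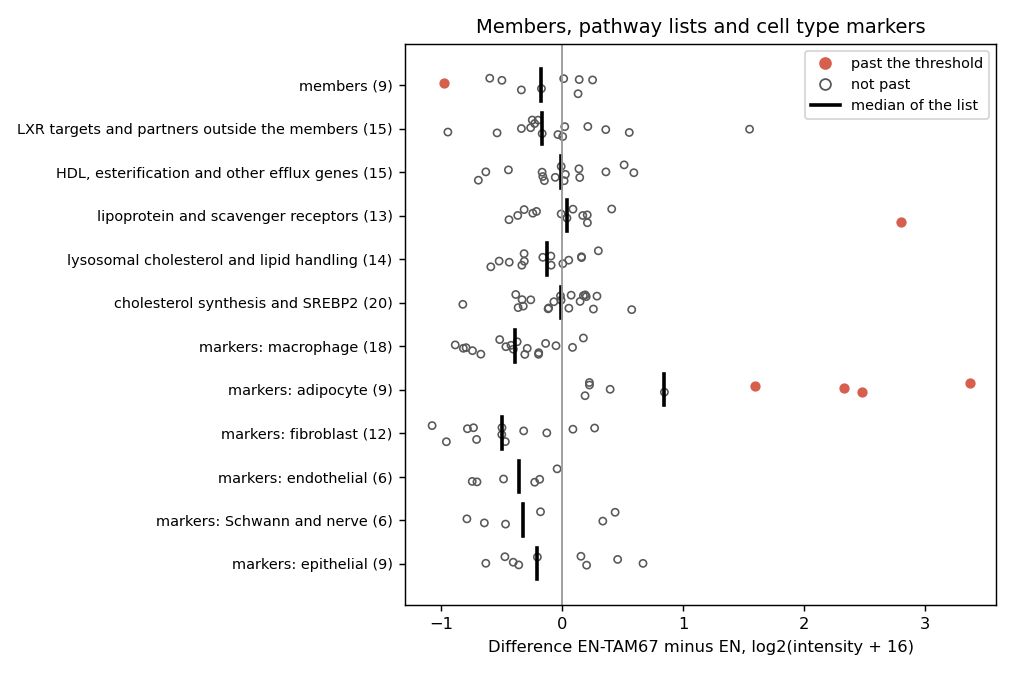
Difference in log2(intensity + 16), EN-TAM67 minus EN, for the members, 5 pathway lists and 6 cell type marker lists, 1 point for each gene tested (number in brackets; vertical scatter only separates points); filled points passed the limma threshold over all genes and bars are list medians. The members' median is -0.17, the macrophage median -0.39 and the adipocyte median 0.84, and the efflux and synthesis lists have medians near 0.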

How the data were processed

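Trizol-extracted, column-cleaned total RNA was labelled as biotinylated cRNA, per the labels. The deposited table holds linear intensities, 1 for each of 45101 probe sets on 4 arrays; not given in the sources used here are the authors' probe summary, background correction and array scaling. The number of arrays limits the precision, and no depth or detection call applies. Gene names came from the platform annotation (34958 with 1 symbol, 932 with several), with symbols looked up in RefSeq (GRCm38.p6), which held 34754 and changed 0.

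After the 64 controls and the dimmest 40% of probe sets by mean had been left out, 27022 remained. The brightest probe set stood for each of 13325 genes, on log2(intensity + 16), which understates changes of dim genes. The comparison used limma 3.58.1 (R 4.3.3; lmFit and eBayes, variance trend on intensity), with two-sided p-values adjusted by Benjamini-Hochberg and called under 0.05, checked on simulated data; figures used matplotlib 3.10.9. The members and the gene lists were chosen with earlier results of these data known. Named list genes were those past the threshold, up to 4 a list, or else the 2 with the largest difference. Lipa stands on 2 lists. Alternatives were other filters, pseudocounts and scalings, averaged or separate probe sets, other variance models, a replicate block and each array left out, where the lone tumour of a group is assumed to vary like the other group.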

Additional observations from a re-analysis of the deposited data

How the results depend on the processing

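The signs of Apoe, Apod, Abcg1, Pltp and Npc2 held in the alternatives that give 1 value a gene, Apoe between -1.21 and -0.74, but the dimmer Npc2 probe set 1455768_at stood at 0.12; Apoc1, Abca1, Nr1h3 and Lrp1 changed sign in at least 1. The members' median lay between -0.32 and -0.089 with 1 array left out. Genes past the threshold numbered 11 to 86 higher and 12 to 99 lower with 1 array left out, and members past it 0 to 1. Quantile normalization gave 10 higher, 29 lower and 0 members, median centring 7 higher, averaged probe sets 11 and 32, no intensity trend 1 and 3 with 0 members, and no filter on dim probe sets 0 members. The causes were not tested. Equal tumour numbers share only a number (correlation of their deviations -0.056 across 13325 genes); with the replicate block 1 gene was higher and 6 lower, with 0 members. Of 322 refits of the named list genes, 278 kept their direction and side of the threshold, 30 lost a call, 13 gained one, 1 uncalled gene changed sign and 0 called ones did. Dim members (Apoc1, Apod and Nr1h3) are limited by signals near the filter.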
